A study of Rattus norvegicus with 30 samples.

Results

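The genes described here are 42 genes of the cell division cycle and of DNA replication, read in rat liver after exposure to DE71, a commercial polybrominated diphenyl ether (PBDE) flame retardant. Each gene was read from the probe set that the platform table assigns to its symbol alone, taking the one with the highest mean over all 30 arrays. This gave values for 40 of the 42 genes, out of 14217 genes read in the whole data set. Rrm2 was matched only by probe sets that also name a second gene, and Nek2 had no probe set in the table, so both stay without a value. All animals were Wistar/Han rats, and each group held 5 livers, each on 1 array. The groups were male control pups, male PBDE pups, female control pups and female PBDE pups on postnatal day 22, and adult control males and adult PBDE males at week 13. Per the labels' protocols, PBDE animals received 50 mg/kg DE71 in corn oil by gavage and controls received 0 mg/kg. Dams were dosed from gestation day 6 to postnatal day 21, pups also directly until postnatal day 21, and the adults went on with dosing on 5 days per week after weaning. No 2 pups had the same dam, and within a dose group no 2 adults did. Adult females are not among the samples, and the liver was taken whole, so a level is an average over hepatocytes and the other cells of the liver.

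A dividing cell passes through a fixed order of steps. D-type and E-type cyclins start it in G1, the MCM helicase, the sliding clamp and the nucleotide-making enzymes copy DNA in S phase, and cyclins A and B with Cdk1 drive entry into mitosis. Kinesins, kinetochore proteins and the spindle checkpoint then part the chromosomes, and the centralspindlin and Ect2 machinery splits the cell. Liver cells divide while the organ grows after birth, and the adult liver is largely quiescent but can divide again. Mitotic genes are transcribed late in the cycle and are regulated by DREAM and other MuvB complexes. Their promoters are known to act through CHR elements and CCAAT boxes, and replication genes are transcribed earlier under E2F.

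Values are log2 levels made by the authors with RMA. A difference of 1 is a factor of 2, and levels are compared only within a gene. Array medians ran from 5.72 to 5.77, and each array correlated with its group mates at 0.988 to 0.994 on average. Xist and Eif2s3y matched the labelled sex on all 30 arrays, and the mean of 10 hepatocyte markers lay between 13.39 and 13.76 on every array. Within that range it ran from 13.53 to 13.69 in male control pups against 13.42 to 13.56 in male PBDE pups. In females it ran from 13.57 to 13.65 in controls against 13.39 to 13.54 in PBDE pups, where the groups did not overlap. One of the 10, Cps1, a urea cycle enzyme, fell with dose in male (-0.29 ± 0.07, adjusted p = 0.0078) and female pups (-0.31 ± 0.07, adjusted p = 0.00592) by limma. The array names in the labels carry 1 of 2 prefixes. The first marks both control pup groups and the male PBDE pups, the second the female PBDE pups and both adult groups. Comparisons across prefixes (dose in female pups, sex in PBDE pups, sex by dose, and age) cannot be told apart from it. The Gapdh controls read at the 3' and 5' ends of the transcript, whose gap widens as RNA degrades, differed by 1.61 ± 0.33 (SD, n = 5) in male control and 2.09 ± 0.65 in male PBDE pups, 1.26 ± 0.50 and 1.93 ± 0.30 in females, and 0.62 ± 0.18 and 1.17 ± 0.62 in adults.

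Promoter windows from RefSeq (assembly GRCr8, from 250 bases before to 50 bases after the annotated start) were matched by symbol for 34 of the 42 genes. Those without one were Ccna2, Ccnd1, Mcm4, Rrm2, Aurkb, Ube2c, Pbk and Racgap1. The windows of 5 mitotic genes, as examples, and of 1 replication gene for contrast, are given 5' to 3' on the gene's own strand. Capitals mark letters that match 1 of 3 motifs on either strand. These are the CHR (TTTGAA or TTCGAA), the CCAAT box (CCAAT) and an E2F-like motif (spelled TTCCCGC as well as TTGGCGC and further TTCGCGC together with TTGCCGC). The letters TTCGAA read alike on both strands and count once. The windows lie at chr4:159320953-159321252 (plus strand) for Cdca3, chr3:74396669-74396968 (minus) for Spc25 and chr8:79981609-79981908 (minus) for Ccnb2. Those of Cdk1, Ect2 and Mcm6 lie at chr20:19265043-19265342 (plus), chr2:111966577-111966876 (minus) and chr13:42404303-42404602 (minus).
Cdca3: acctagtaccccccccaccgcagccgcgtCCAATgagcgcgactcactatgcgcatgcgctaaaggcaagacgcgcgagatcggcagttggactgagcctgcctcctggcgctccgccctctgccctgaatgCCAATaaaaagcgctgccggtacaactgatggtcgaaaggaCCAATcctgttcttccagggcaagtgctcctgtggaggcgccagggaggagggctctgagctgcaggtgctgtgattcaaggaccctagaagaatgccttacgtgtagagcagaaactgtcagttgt
Spc25: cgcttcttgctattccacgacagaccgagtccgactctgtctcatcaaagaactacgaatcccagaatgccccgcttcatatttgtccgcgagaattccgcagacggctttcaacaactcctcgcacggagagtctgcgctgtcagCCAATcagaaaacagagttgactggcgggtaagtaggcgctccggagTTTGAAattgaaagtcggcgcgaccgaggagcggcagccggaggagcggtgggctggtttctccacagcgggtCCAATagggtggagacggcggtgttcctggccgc
Ccnb2: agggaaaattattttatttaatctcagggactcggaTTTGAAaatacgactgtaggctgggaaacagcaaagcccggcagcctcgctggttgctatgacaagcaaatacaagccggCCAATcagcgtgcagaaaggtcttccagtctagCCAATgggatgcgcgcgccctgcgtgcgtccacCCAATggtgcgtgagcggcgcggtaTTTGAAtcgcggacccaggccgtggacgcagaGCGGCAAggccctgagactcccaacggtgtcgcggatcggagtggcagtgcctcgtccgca
Cdk1: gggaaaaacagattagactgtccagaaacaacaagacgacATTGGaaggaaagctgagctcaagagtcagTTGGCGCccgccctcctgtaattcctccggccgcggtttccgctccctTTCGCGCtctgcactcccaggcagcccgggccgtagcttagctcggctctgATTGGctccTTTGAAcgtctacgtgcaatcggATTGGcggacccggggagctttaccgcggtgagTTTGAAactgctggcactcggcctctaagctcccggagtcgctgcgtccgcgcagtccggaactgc
Ect2: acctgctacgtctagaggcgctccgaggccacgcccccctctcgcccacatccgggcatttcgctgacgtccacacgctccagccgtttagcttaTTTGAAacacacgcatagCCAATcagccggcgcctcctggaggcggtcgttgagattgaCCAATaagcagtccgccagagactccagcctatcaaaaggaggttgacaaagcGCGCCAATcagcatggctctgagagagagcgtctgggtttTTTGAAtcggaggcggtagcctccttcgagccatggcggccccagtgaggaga
Mcm6: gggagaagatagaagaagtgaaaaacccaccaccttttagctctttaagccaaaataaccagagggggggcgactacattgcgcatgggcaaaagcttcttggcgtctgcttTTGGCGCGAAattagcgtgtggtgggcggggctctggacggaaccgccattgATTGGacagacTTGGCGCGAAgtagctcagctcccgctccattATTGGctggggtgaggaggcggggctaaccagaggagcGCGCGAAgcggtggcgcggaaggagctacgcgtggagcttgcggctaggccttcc

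Counting the base before the start site as -1, the Ccnb2 window held CCAAT boxes that began at -134, -101 and -68 and CHRs at -214 and -43. The Cdk1 window had CCAAT boxes in reverse orientation at -210, -81 and -49 and CHRs at -72 and -16. In Spc25 a CCAAT box at -104 was followed by a CHR at -57. Cdca3 held 3 CCAAT boxes and no letters of the other motifs. Further genes rose with dose in pups, as given below, and their windows are not printed. Of these, Ccnb1, Kif20a, Kif11, Tk1, Bub1 and Aurka held no CHR, and Nusap1 and Prc1 held 1 each. Mcm6 held 5 E2F-like matches, of which 2 pairs overlapped, and 2 CCAAT boxes. In Ect2 the E2F-like match at -43 overlapped a CCAAT box. Over all 34 windows, 52.9% held a CHR, 73.5% a CCAAT box and 35.3% an E2F-like motif. The shares among 18999 protein-coding promoters of the same length were 18.5%, 38.4% and 12.2%. A CHR and a CCAAT box stood together in 47.1% of the 34 windows and in 7.64% of all. The roles differed in these shares. Among 24 mitotic windows 62.5% held a CHR and 20.8% an E2F-like motif, and among 9 replication and nucleotide windows 33.3% and 77.8%. These matches describe letters in a window and were not tested for binding.

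**Figure D1:**
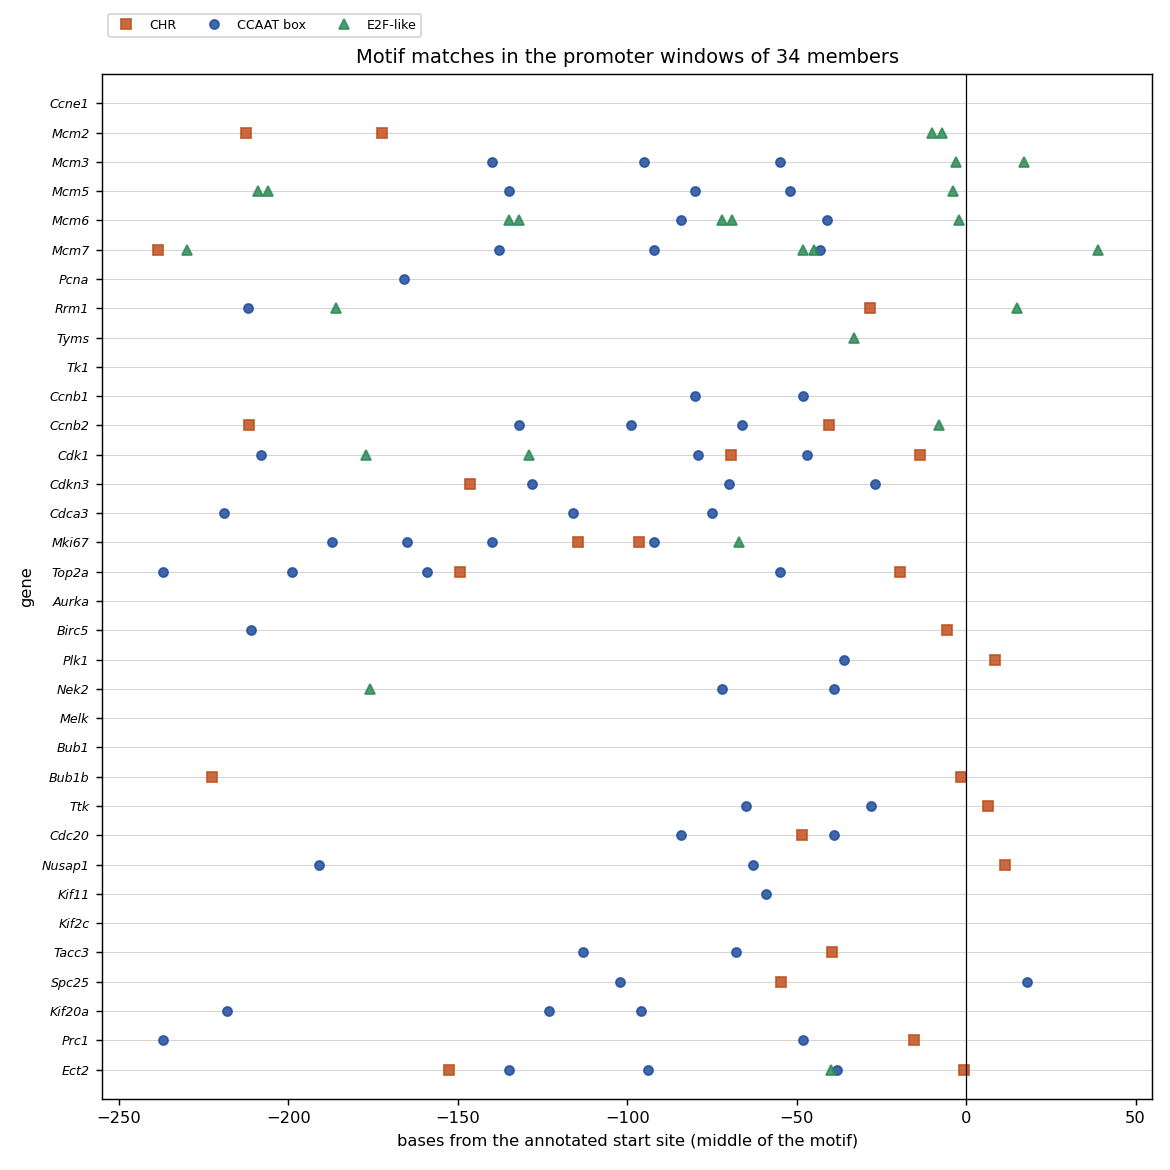
Position of each motif match (squares, CHR; circles, CCAAT box; triangles, E2F-like) in bases from the annotated start site, for the 34 genes with a promoter window. Triangles stand in 77.8% of the windows of replication and nucleotide genes (Mcm2 to Tyms and Tk1) and in 20.8% of the mitotic ones, and squares in 33.3% and 62.5%.

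The mean over the 40 genes is given first, with no test. It was 6.46 ± 0.15 (SD, n = 5) in male control pups and 6.94 ± 0.22 in male PBDE pups. In female pups it was 6.05 ± 0.24 in controls and 6.56 ± 0.28 in PBDE animals. Both adult groups were lowest, at 5.55 ± 0.16 in controls and 5.59 ± 0.09 in PBDE males. The 2 adult groups did not overlap with any pup group, whose lowest array stood at 5.79, and the highest adult array stood at 5.78. In male pups the ranges met narrowly, with 6.25 to 6.64 in controls and 6.58 to 7.11 in PBDE animals. The lowest PBDE array there was replicate 4. In female pups they overlapped too, with 5.79 to 6.34 in controls and 6.16 to 6.92 in PBDE animals, and the female PBDE range spanned that of the male controls. The adult groups overlapped each other. In a liver sampled whole, fewer dividing cells and less of these RNAs per cell cannot be told apart. Many members sat low on the arrays: the group mean lay below the array median of 5.74 for 11 and 4 of 40 genes in male control and PBDE pups, 17 and 9 in females, and 24 and 24 in adults. Differences between values near the bottom of the scale are compressed on arrays, as background.

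**Figure D2:**
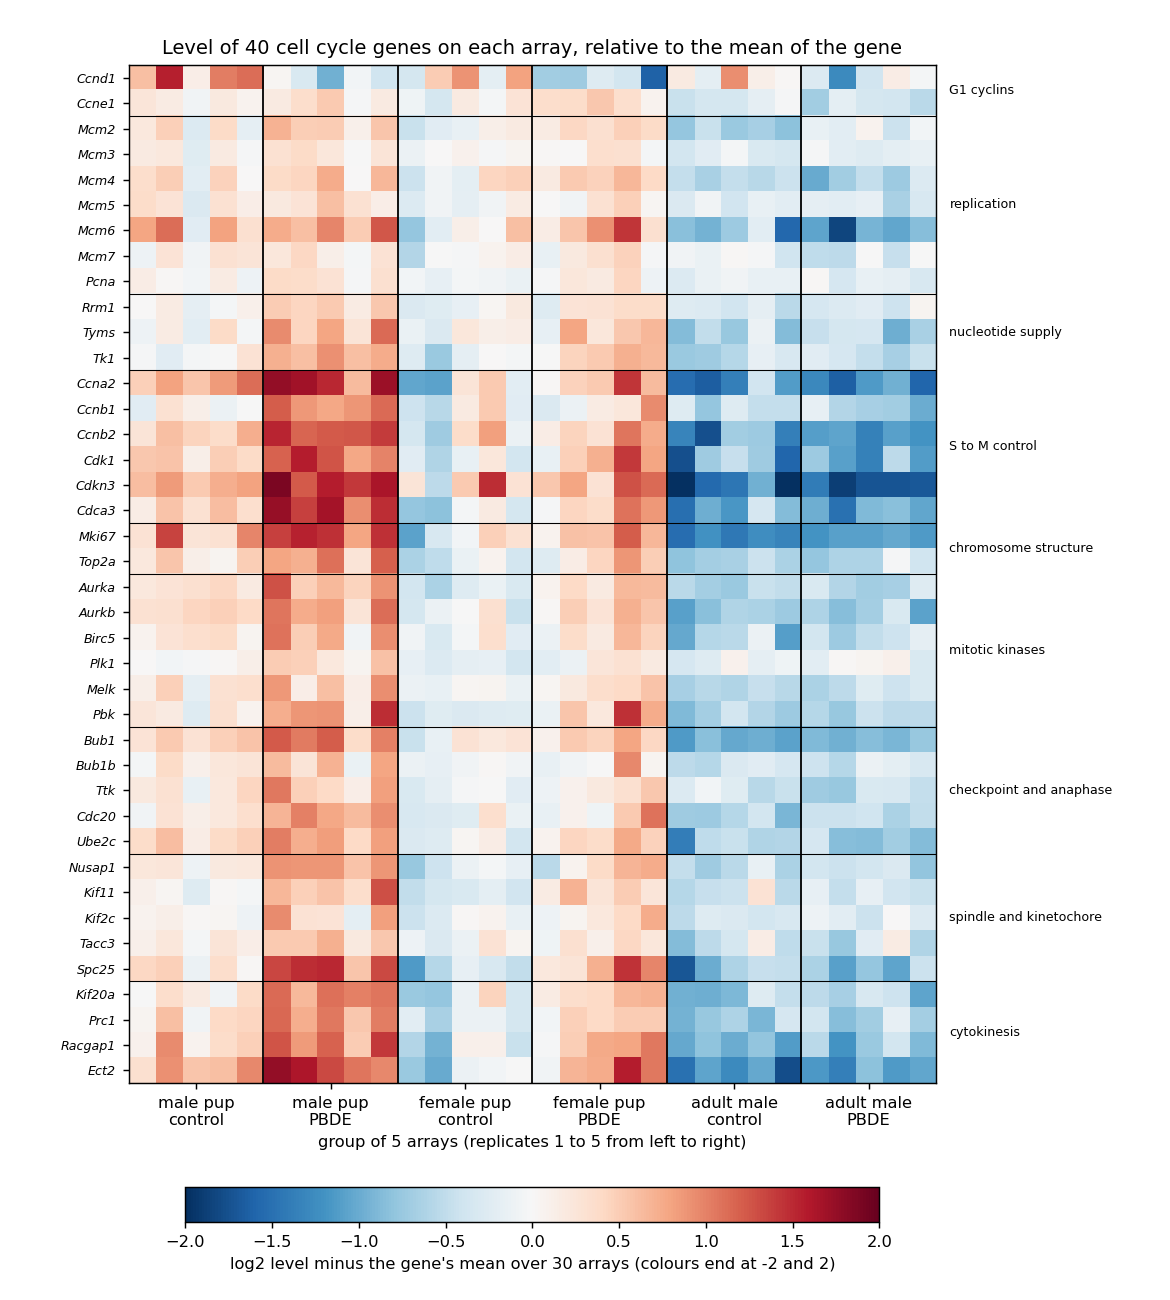
Level of each of the 40 genes (rows, by role) on each of the 30 arrays (columns, by group), as log2 level minus the gene's own mean. Red is above and blue below that mean. Male PBDE pups are the reddest block with replicate 4 paler, and both adult groups are mostly blue.

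The first comparison set male PBDE pups against male control pups, whose arrays share a name prefix. The genes that rose were 3 of 6 in mitotic entry, 3 of 5 of the spindle and kinetochore, 2 of 4 in cytokinesis, 1 of 5 in checkpoint and anaphase and 1 of 3 in nucleotide supply. No subunit of the replication helicase passed, and cyclin D1 fell. With limma over all probe sets, at a false discovery rate of 0.01, 10 of the 40 genes rose and 1 fell. Over all 14217 genes 4.23% rose and 3.26% fell. The fitted change was above 0 for 39 of the 40 genes, with a median of 0.49 on the log2 scale, against 0.02 over all genes. In 12 of the 40 all 5 PBDE arrays lay above all 5 controls, which 6.77% of all genes did.

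Among regulators of mitotic entry, 3 of 6 rose. Cdca3, which helps remove the Cdk1 inhibitor kinase Wee1, read 7.17, 7.58, 7.32, 7.63 and 7.36 in the male controls and 8.77, 8.39, 8.68, 7.95 and 8.49 in the male PBDE pups. The groups did not overlap, and the rise was 2.06-fold (log2 change 1.04 ± 0.21 SE, adjusted p = 0.00127). Ccnb1, the cyclin that activates Cdk1 at mitotic entry, read 5.31, 5.84, 5.65, 5.42 and 5.52 in controls and 6.75, 6.40, 6.30, 6.41 and 6.67 in PBDE pups. Again every PBDE array was the higher, by 1.94-fold (0.96 ± 0.19, adjusted p = 0.00112). Ccnb2, its close relative, read 6.44, 6.78, 6.63, 6.56 and 6.92 in controls and 7.72, 7.35, 7.42, 7.43 and 7.58 in PBDE pups. It also separated fully and rose 1.78-fold (0.83 ± 0.21, adjusted p = 0.0095). Cdk1 itself read 6.71, 6.74, 6.29, 6.66 and 6.55 against 7.35, 7.74, 7.44, 6.95 and 7.17. These 2 sets of arrays do not overlap either, yet the change of 0.74 ± 0.24 did not pass (adjusted p = 0.0404). Cdkn3, a phosphatase that acts on Cdk1 and Cdk2, stood at 0.84 ± 0.26 (adjusted p = 0.0381), and Ccna2, the S and G2 cyclin, at 0.70 ± 0.28 (adjusted p = 0.122).

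Spindle and kinetochore genes rose in 3 of 5 cases. Spc25, a subunit of the NDC80 complex that ties kinetochores to microtubules, read 6.37, 6.44, 5.84, 6.30 and 5.97 in male controls and 7.29, 7.43, 7.47, 6.51 and 7.28 in PBDE pups. Replicate 4 was the lowest PBDE array and still above every control, and the gene rose 2.01-fold (log2 change 1.01 ± 0.24, adjusted p = 0.00486). Kif11, the kinesin that pushes spindle poles apart, read 5.75, 5.69, 5.40, 5.68 and 5.61 against 6.31, 6.13, 6.23, 6.01 and 6.94, without overlap (0.70 ± 0.15, adjusted p = 0.00183). Nusap1, which bundles spindle microtubules, read 7.05, 7.06, 6.72, 7.01 and 7.03 against 7.72, 7.71, 7.71, 7.38 and 7.70. It rose by 0.67 ± 0.17 (adjusted p = 0.00927), also without overlap. Among the cytokinesis genes, Kif20a, a kinesin of the central spindle, read 6.19, 6.54, 6.38, 6.13 and 6.57 against 7.33, 6.85, 7.29, 7.20 and 7.27. Its groups were apart and it rose by 0.82 ± 0.18 (adjusted p = 0.00294). Prc1, which crosslinks midzone microtubules, read 6.82, 7.38, 6.70, 7.17 and 7.20 against 7.92, 7.49, 7.83, 7.31 and 7.80. Here the lowest PBDE array, replicate 4, fell inside the control range, and the rise was 0.61 ± 0.15 (adjusted p = 0.00784). Ect2, which acts at the cleavage furrow, and Racgap1, its centralspindlin partner, had changes of 0.67 ± 0.23 and 0.65 ± 0.21 that did not pass (adjusted p = 0.0543 and 0.0409).

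Of 5 checkpoint and anaphase genes only Bub1, a spindle checkpoint kinase, rose. It read 5.40, 5.64, 5.41, 5.60 and 5.70 in male controls and 6.36, 6.17, 6.34, 5.50 and 6.14 in PBDE pups, a change of 0.55 ± 0.14 (adjusted p = 0.00967). PBDE replicate 4 sat among the controls, and the other 4 PBDE arrays lay above them all. Cdc20, the activator of the anaphase-promoting complex, came just short of the threshold at 0.63 ± 0.16 (adjusted p = 0.0103). A group of 6 genes was labelled mitotic kinases: Aurka, Aurkb, Plk1, Melk, Pbk and Birc5, which is not itself a kinase. Bub1 was counted with the checkpoint instead. None of the 6 passed, with changes from 0.32 for Melk to 0.71 ± 0.20 for Pbk (adjusted p = 0.0212). Mki67, the proliferation marker that coats mitotic chromosomes, read 5.61, 6.69, 5.58, 5.63 and 6.30 against 6.70, 6.86, 6.78, 6.12 and 6.80. Control replicates 2 and 5 lay above PBDE replicate 4, and the change of 0.69 ± 0.23 did not pass (adjusted p = 0.0485).

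Of the nucleotide and replication genes, 1 rose. Tk1, the S-phase thymidine kinase, read 7.85, 7.65, 7.85, 7.87 and 8.18 in male controls and 8.59, 8.48, 8.79, 8.48 and 8.62 in PBDE pups. The groups were apart and it rose 1.64-fold (log2 change 0.71 ± 0.14, adjusted p = 8.33e-04). A second Tk1 probe set rose by 1.00 ± 0.23, and the remaining one, which averaged 5.13 in controls, stood at 0.06 ± 0.10. Tyms, the thymidylate synthase, and Rrm1, the large ribonucleotide reductase subunit, had 0.67 ± 0.18 and 0.42 ± 0.11 (adjusted p = 0.0138 and 0.0133). None of the 7 helicase and clamp genes passed. Their changes ran from 0.07 ± 0.14 for Mcm7 to 0.35 ± 0.13 for Mcm2. Mcm2, a helicase subunit, read 6.85, 7.12, 6.37, 7.02 and 6.46 against 7.34, 7.14, 7.16, 6.74 and 7.20, with overlap (adjusted p = 0.0979). Pcna, the sliding clamp, read 9.88, 9.75, 9.68, 9.89 and 9.63 against 10.12, 10.11, 10.03, 9.71 and 10.06. Replicate 4 lay among the controls, and the change was 0.24 ± 0.09 (95% interval 0.06 to 0.42, adjusted p = 0.0879).

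Of the 2 G1 cyclins, 1 fell. Ccnd1, the cyclin D1 gene that couples growth signals to the cycle, read 8.96, 9.92, 8.49, 9.38 and 9.48 in male controls and 8.40, 8.06, 7.40, 8.31 and 7.96 in PBDE pups. Every PBDE array was the lower, by 2.33-fold (log2 change -1.22 ± 0.30, adjusted p = 0.00651). The 2 other Ccnd1 probe sets fell as well, by 1.09 ± 0.27 and 1.19 ± 0.26. Ccne1, cyclin E1, read 6.50, 6.43, 6.19, 6.46 and 6.33 against 6.44, 6.62, 6.78, 6.24 and 6.44, an overlapping difference of 0.12 ± 0.12 (95% interval -0.12 to 0.36).

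Tk1 and Cdca3 kept their call under all 17 alternative settings and Ccnb1 under the 16 that read it. The count of 10 was 5 with the 3' minus 5' difference as a covariate. It was 5 or 6 without any 1 of male control replicates 1, 3, 4 and 5 or PBDE replicates 1, 2, 3 and 5, and 14 without PBDE replicate 4. The Ccnd1 call was lost without any 1 of control replicates 2, 4 and 5 or PBDE replicates 2, 3 and 5, at adjusted p up to 0.0281, and also with the replicate block and with trended, robust eBayes.

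**Figure D3:**
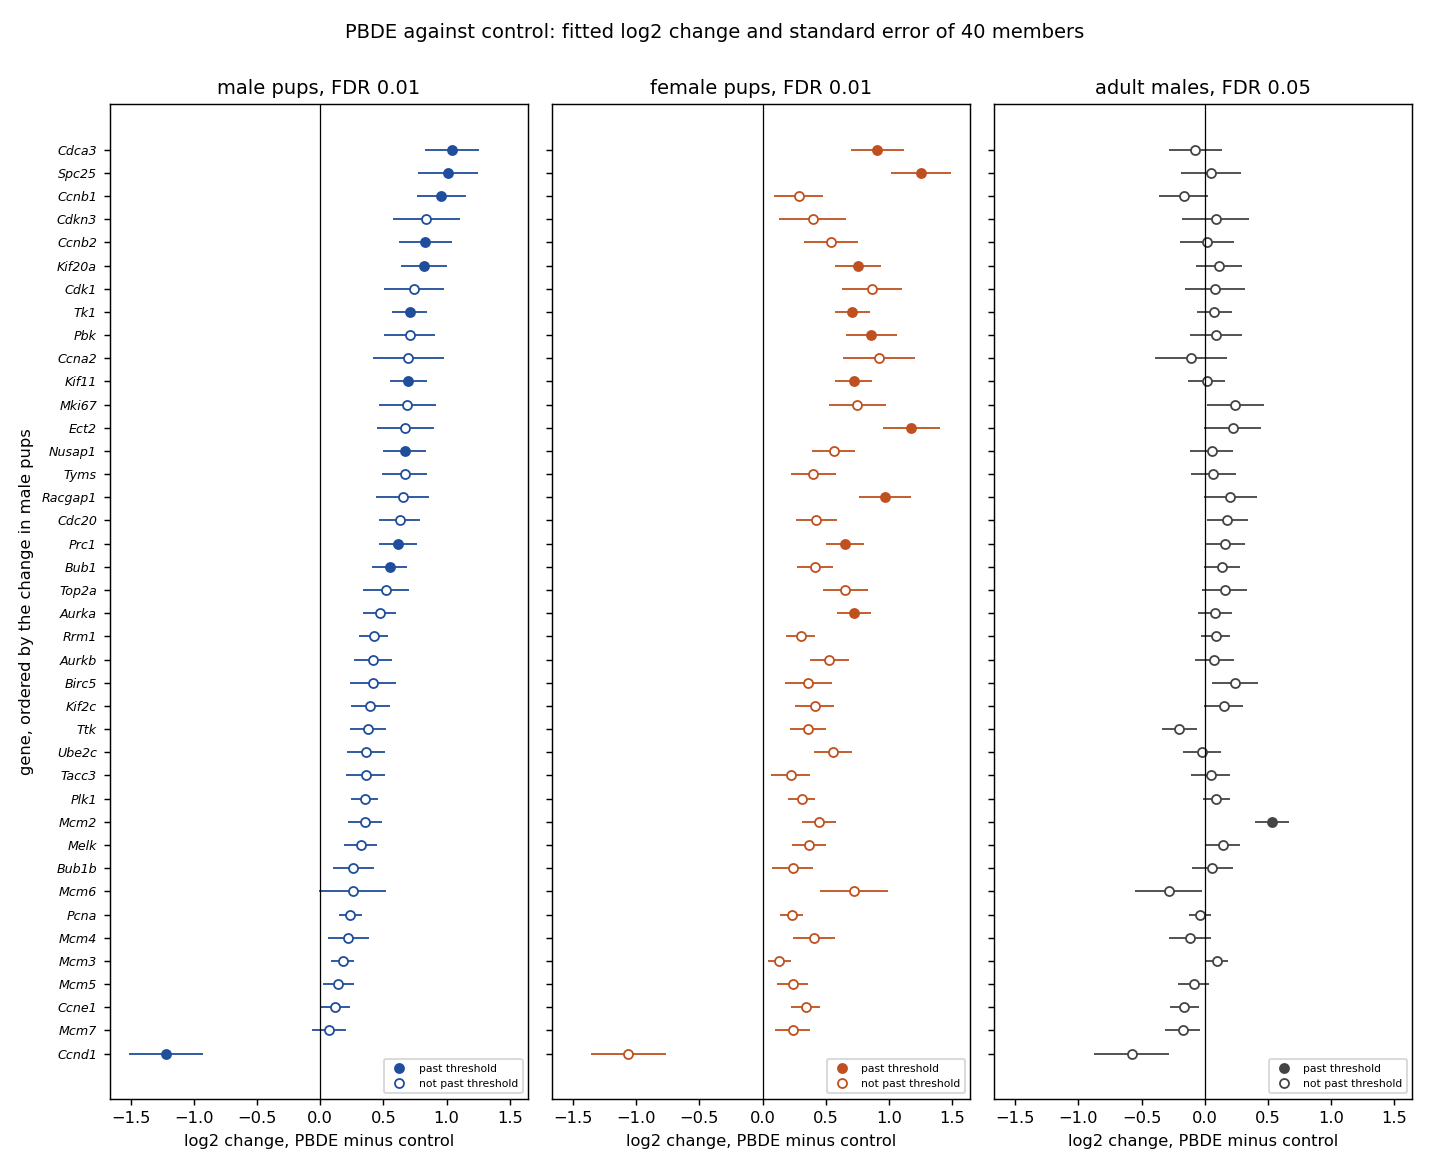
Fitted log2 change (points) with its standard error (bars) of each gene for PBDE against control, in male pups, female pups and adult males. Filled points passed the threshold. In both pup panels all genes but Ccnd1 lie right of 0, and in adults the points gather around 0 with Mcm2 alone filled.

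The same comparison in female pups spans the array-name prefixes. The genes that rose were all 4 cytokinesis genes, 2 of 5 spindle and kinetochore genes and 2 of 6 in the group labelled mitotic kinases. With them rose 1 of 6 mitotic entry genes and 1 of 3 nucleotide genes. Of the 40 genes 10 rose and none fell, against 3.95% and 2.18% of all genes. At an unadjusted p under 0.05, 1 of the 40 was lower, Ccnd1, against 10.5% of all genes. The change was above 0 for 39 of 40, with a median of 0.44 (0.02 over all genes), and in 5 all PBDE arrays lay above all controls, as in 6.56% of all genes.

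All 4 cytokinesis genes rose in females. Ect2 read 5.01, 4.75, 5.64, 5.70 and 5.75 in female controls and 5.69, 6.44, 6.49, 7.32 and 6.81 in female PBDE pups. Replicate 1 of the PBDE group sat at the control level and the others were above it, and the rise was 2.26-fold (log2 change 1.18 ± 0.23, adjusted p = 8.40e-04). Racgap1 read 4.83, 4.49, 5.52, 5.53 and 4.98 against 5.40, 5.92, 6.19, 6.21 and 6.48, again with PBDE replicate 1 inside the control range (0.97 ± 0.21, adjusted p = 0.00254). Kif20a read 5.46, 5.43, 6.08, 6.65 and 5.85 against 6.36, 6.55, 6.59, 6.87 and 6.89. Control replicate 4 reached the PBDE values, and the rise was 0.76 ± 0.18 (adjusted p = 0.00687). Prc1 read 6.56, 6.12, 6.65, 6.66 and 6.42 against 6.71, 7.24, 7.17, 7.28 and 7.28, without overlap (0.65 ± 0.15, adjusted p = 0.00554).

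Spc25 had the highest rise of the 40 in females. It read 4.82, 5.39, 5.79, 5.63 and 5.46 in controls and 6.16, 6.22, 6.66, 7.40 and 6.93 in PBDE pups. The groups were fully apart, at 2.39-fold (log2 change 1.26 ± 0.24, adjusted p = 6.65e-04). Kif11 read 5.16, 5.30, 5.34, 5.45 and 5.26 against 5.81, 6.34, 5.91, 6.16 and 5.89, also apart (0.72 ± 0.15, adjusted p = 0.0015). In the group labelled mitotic kinases, Aurka, the centrosomal Aurora kinase, read 5.34, 5.07, 5.44, 5.57 and 5.40 against 5.77, 6.11, 5.88, 6.35 and 6.33. It rose by 0.72 ± 0.13 (adjusted p = 4.63e-04) without overlap. Pbk, a mitotic kinase, read 5.19, 5.38, 5.34, 5.37 and 5.37 against 5.48, 6.17, 5.83, 7.08 and 6.37. The PBDE arrays spread widely above a tight control group (0.86 ± 0.20, adjusted p = 0.00585).

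Only Cdca3 rose among the mitotic entry genes of females. It read 6.25, 6.19, 6.97, 7.20 and 6.66 in controls and 7.00, 7.44, 7.39, 8.10 and 7.88 in PBDE pups, with a single PBDE array inside the control range (log2 change 0.91 ± 0.21, adjusted p = 0.00534). Ccnb1 read 5.12, 4.98, 5.71, 6.06 and 5.31 against 5.25, 5.42, 5.69, 5.77 and 6.47. The groups overlapped throughout, and the change of 0.29 ± 0.19 did not pass (adjusted p = 0.442). Cdk1 read 5.95, 5.57, 6.02, 6.40 and 5.81 against 6.03, 6.65, 6.87, 7.58 and 6.96, with PBDE replicate 1 among the controls (0.87 ± 0.24, adjusted p = 0.0181). Ccna2 and Ccnb2 stood at 0.92 ± 0.28 and 0.54 ± 0.21 (adjusted p = 0.0404 and 0.125). Mki67 read 4.26, 5.01, 5.27, 5.81 and 5.63 against 5.39, 5.92, 5.90, 6.54 and 5.99. Its ranges met, and 0.75 ± 0.23 did not pass (adjusted p = 0.0354).

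Tk1 was again the nucleotide gene that rose. It read 7.62, 7.14, 7.70, 7.89 and 7.84 in female controls and 7.88, 8.32, 8.41, 8.60 and 8.53 in PBDE pups, where only replicate 1 was within the control range (log2 change 0.71 ± 0.14, adjusted p = 9.35e-04). Its second probe set rose by 1.16 ± 0.23. None of the replication genes passed. Mcm2 read 6.20, 6.42, 6.50, 6.77 and 6.83 against 6.80, 7.05, 6.96, 7.11 and 7.03 (0.45 ± 0.13, adjusted p = 0.0329), and PBDE replicate 1 fell just below the highest control. Pcna read 9.68, 9.58, 9.70, 9.67 and 9.60 against 9.71, 9.96, 9.92, 10.16 and 9.64, an overlapping 0.23 ± 0.09 (adjusted p = 0.118). Ccne1 read 6.18, 5.91, 6.43, 6.22 and 6.54 against 6.62, 6.62, 6.80, 6.60 and 6.34, where replicate 5 of the PBDE group lay among the controls (0.34 ± 0.12, adjusted p = 0.0641). Ccnd1 read 8.01, 8.87, 9.26, 8.17 and 9.17 against 7.67, 7.65, 8.10, 8.0 and 6.75. The PBDE arrays were on the low side with overlap, and the change of -1.06 ± 0.30 missed the threshold (adjusted p = 0.0213).

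Across the 2 sexes, which share no arrays, 6 genes rose in both: Cdca3, Spc25, Kif20a, Tk1, Kif11 and Prc1. Of all genes, 376 rose in both, out of 601 in males and 562 in females, a share near the 6 of 10 here. In females Spc25 and Aurka kept the call under all alternatives that read them. The count of 10 was 4 when only the 2 female groups were fitted, 5 with the 3' minus 5' covariate, and 6 after a filter on low values that left 25 of the 40 genes. It was 5 or 6 without any 1 of female control replicates 2 and 5 or PBDE replicates 4 and 5.

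**Figure D4:**
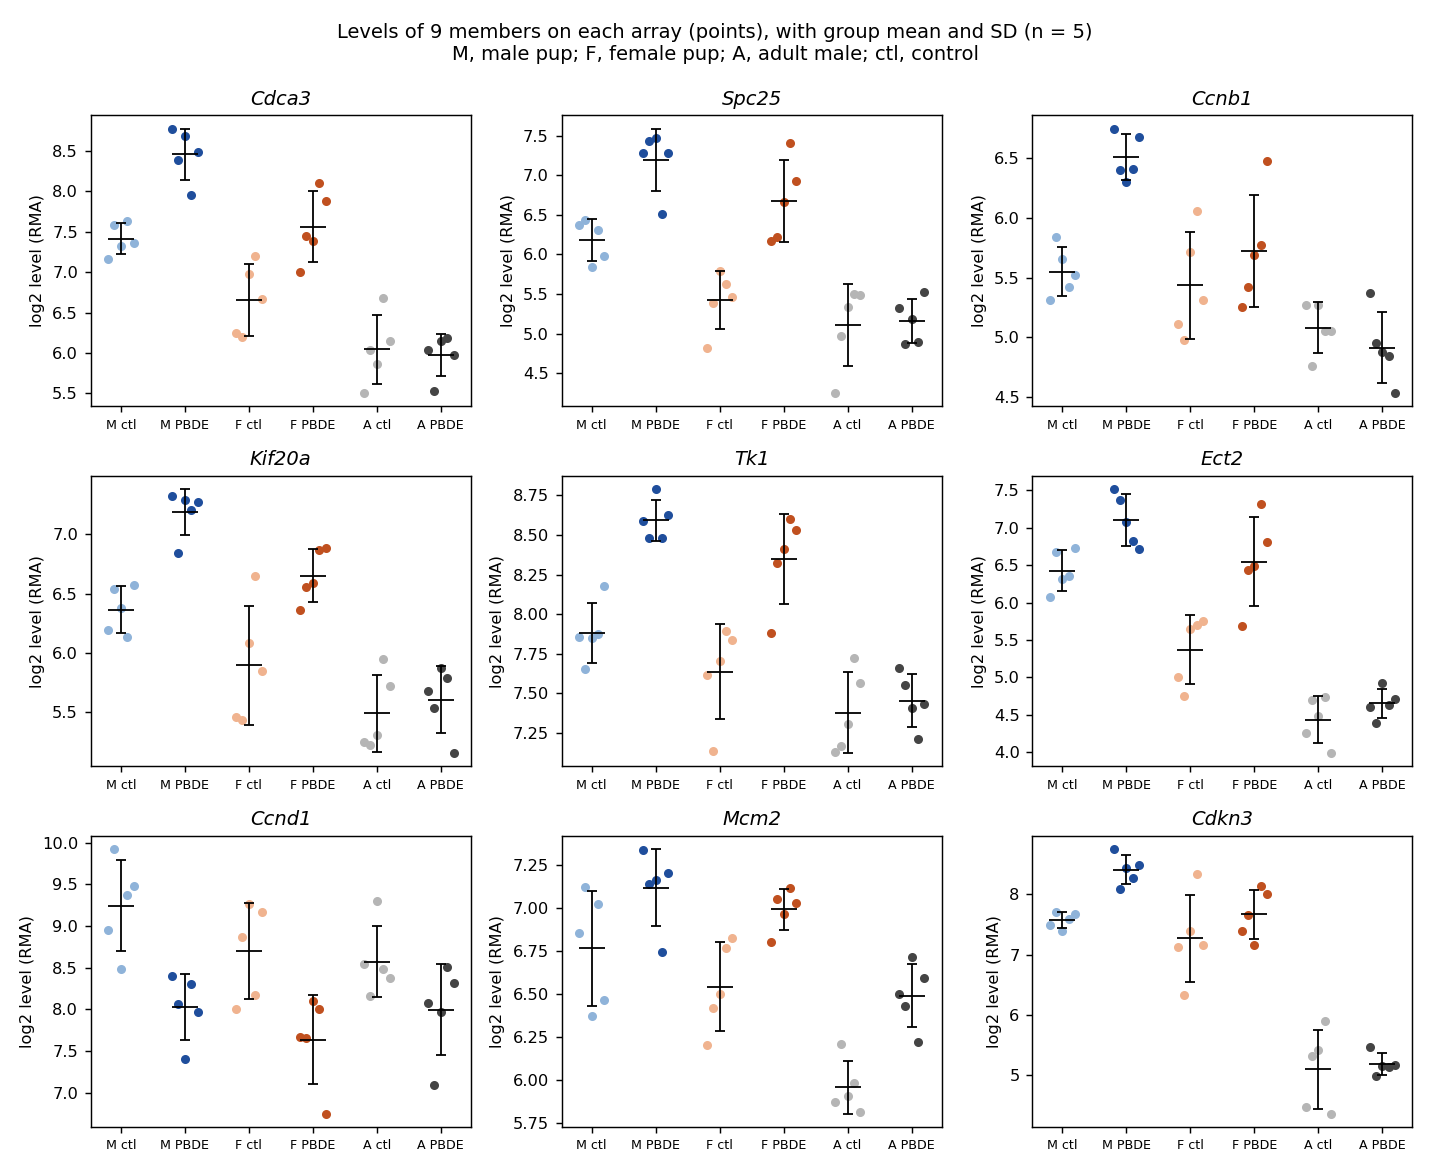
Log2 level of 9 genes on each array (points) with the group mean and SD (bars, n = 5) for male pups (M), female pups (F) and adult males (A), control (ctl) or PBDE. Cdca3, Spc25, Kif20a and Tk1 rose with PBDE in both pup sexes, Ect2 in female pups, and Ccnd1 fell in male pups.

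The sex comparisons set male pups against female pups at each dose. Between controls, whose arrays share a prefix, the male minus female difference was above 0 for all 40 genes, with a median of 0.34 against 0.00 over all genes. No gene passed the threshold in either direction with limma, and 0.0141% and 0.0281% of all genes did, male higher and male lower. At an unadjusted p under 0.05, 20 of the 40 were higher in males, against 4.92% of all genes. In 6 the male arrays all lay above the female arrays (0.823% of all genes): Ect2, Spc25, Aurka, Prc1, Ube2c and Plk1. Ect2 had a difference of 1.06 ± 0.23 (95% interval 0.60 to 1.52, adjusted p = 0.0519), with the values given above: 6.08 to 6.72 in males and 4.75 to 5.75 in females. Aurka ran from 5.88 to 6.12 in males and from 5.07 to 5.57 in females (0.61 ± 0.13, adjusted p = 0.0519). Ccna2 differed as much, 1.06 ± 0.28, but with female arrays from 3.87 to 5.47 reaching the lowest males at 5.42 (adjusted p = 0.17).

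Between PBDE pups 38 of 40 differences were above 0, with a median of 0.36, and none passed (0.0281% of all genes did in each direction: 0.0281% higher and 0.0281% lower). At an unadjusted p under 0.05, 21 of 40 were higher in males, against 2.6% of all genes. These groups lie on different prefixes. Cdca3 had the largest difference, 0.89 ± 0.21 (adjusted p = 0.194). The interaction of sex and dose, the male change minus the female change, passed for none of the 40 genes and for 0% of all genes in both directions. Its median over the 40 was -0.03. At an unadjusted p under 0.05 it was higher for 1 gene, against 2.6% of all genes, and lower for none, against 3.02%. That gene was Ccnb1 (0.67 ± 0.27, 95% interval 0.12 to 1.23, adjusted p = 0.944). For Ect2, which passed in females and not in males, the interaction was -0.51 with a 95% interval from -1.16 to 0.15, an interval that covers both no difference and a larger rise in females.

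In adult males at week 13 PBDE and control livers differed little in most of these genes. With limma at a false discovery rate of 0.05, 1 of the 40 rose, a share near the 1.86% of all genes that did. None fell, against 2.04% of all genes. At an unadjusted p under 0.05 none was lower, against 9.24% of all genes. The median change was 0.07 (0.01 over all genes). The gene that rose was Mcm2, which read 5.87, 6.20, 5.91, 5.98 and 5.81 in controls and 6.50, 6.43, 6.71, 6.22 and 6.59 in PBDE males. The 2 sets were separate by a narrow margin, and the rise was 1.45-fold (log2 change 0.53 ± 0.13, adjusted p = 0.0232). No other helicase subunit did so: Mcm3 to Mcm7 ran from -0.29 ± 0.27 for Mcm6 to 0.09 ± 0.09 for Mcm3. The Mcm2 call was lost without any 1 of adult control replicates 1, 3 and 5 or adult PBDE replicates 3 and 5, and with the 3' minus 5' covariate (0.41, adjusted p = 0.104).

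None of the genes that led in pups passed in adults. Cdca3 read 5.51, 6.04, 5.86, 6.68 and 6.15 in adult controls and 6.03, 5.53, 6.14, 6.18 and 5.97 in adult PBDE males (log2 change -0.07, 95% interval -0.51 to 0.36). Spc25 read 4.25, 4.97, 5.34, 5.49 and 5.48 against 5.32, 4.87, 5.18, 4.90 and 5.52 (0.05, -0.43 to 0.53). Both pairs of groups overlapped. Ccnb1 stood at -0.17 (-0.56 to 0.22), Tk1 at 0.08 (-0.21 to 0.36) and Ect2 at 0.22 (-0.24 to 0.68). Cdk1 read 4.41, 5.46, 5.70, 5.46 and 4.59 against 5.44, 5.09, 4.82, 5.65 and 5.05, with wide and overlapping groups (0.08, -0.40 to 0.57). Mki67 read 3.80, 4.12, 3.90, 4.09 and 4.01 against 4.14, 4.23, 4.25, 4.31 and 4.20. Its PBDE arrays all lay just above its controls, far down the scale, and 0.24 ± 0.23 did not pass (adjusted p = 0.66). Pcna read 9.47, 9.60, 9.67, 9.59 and 9.59 against 9.76, 9.40, 9.58, 9.56 and 9.42 (-0.04, -0.22 to 0.14). Ccne1 read 5.82, 5.90, 5.91, 6.09 and 6.24 against 5.56, 6.07, 5.90, 5.89 and 5.72 (-0.16, -0.40 to 0.07). Both overlapped. Ccnd1 read 8.54, 8.16, 9.30, 8.48 and 8.38 against 8.08, 7.09, 7.97, 8.51 and 8.32. The PBDE arrays leaned low with overlap, and -0.58 ± 0.30 did not pass (95% interval -1.18 to 0.03, adjusted p = 0.336).

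The interaction of age and dose tested whether the exposure changed a gene by a different amount in adult males than in male pups. It was below 0 for 38 of the 40 genes, with a median of -0.43 against -0.01 over all genes. It passed in the lower direction for 2 of 40 genes and in the higher direction for none, and 1.35% of all genes passed lower and 1.13% higher. The 2 were Ccnb1 (-1.12 ± 0.27, 95% interval -1.68 to -0.57, adjusted p = 0.0254) and Cdca3 (-1.12 ± 0.30, -1.73 to -0.51, adjusted p = 0.0463). Ccnb1 read 5.27, 4.76, 5.28, 5.06 and 5.05 in adult controls and 5.37, 4.95, 4.88, 4.84 and 4.54 in adult PBDE males, overlapping groups that stand below the pup PBDE arrays of 6.30 to 6.75. Spc25 had -0.96 ± 0.33 (adjusted p = 0.148) and Kif11 -0.68 ± 0.21 (adjusted p = 0.0883). Ccnd1 and Mcm2 were the 2 genes on the other side of 0, at 0.64 ± 0.42 and 0.18 ± 0.19, and neither passed. The Ccnb1 call was lost without adult PBDE replicate 5 (adjusted p = 0.0522). Omitting any single array among control male pups 1, 2, 3 and 5, PBDE male pups 1, 2, 3 and 5, adult controls 2 to 5 and the 5 adult PBDE males ended the Cdca3 call, with adjusted p up to 0.097.

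The age comparisons had the largest medians of the 10 comparisons. Adult control males were lower than male control pups for all 40, and 33 of 40 passed, with none higher. Over all genes 18.6% fell and 10.9% rose, and the median change was -0.79 against -0.02 over all genes. In 26 of 40 all adult arrays lay below all pups, which 13.4% of all genes did. The ages lie on different array-name prefixes, so the fall cannot be told apart from prefix. The Gapdh gap also moved with age, from 1.61 in control pups to 0.62 in control adults, and with it as a covariate 21 of 40 genes fell in place of 33, and 36 in place of 39 in PBDE males. The 7 genes that did not pass were Ccnd1, Ccnb1, Kif2c, Kif11, Mcm7, Pcna and Plk1.

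Of the 6 regulators of mitotic entry 5 fell. Cdkn3 read 7.49, 7.72, 7.39, 7.60 and 7.68 in control pups and 4.47, 5.32, 5.43, 5.91 and 4.36 in adult controls, a fall of 5.56-fold (log2 change -2.48 ± 0.26, adjusted p = 4.03e-08). The highest adult array lay well below the lowest pup. Ccna2 read 5.42, 5.75, 5.50, 5.80 and 6.06 against 3.42, 3.29, 3.58, 4.57 and 3.82 (-1.97 ± 0.28, adjusted p = 5.65e-06). Ccnb2 went from the pup values given above to 4.86, 4.43, 5.50, 5.46 and 4.83 (-1.65 ± 0.21, adjusted p = 8.57e-07), and Cdk1 fell by 1.46 ± 0.24 (adjusted p = 2.82e-05). In each of these the highest adult stayed below the lowest pup. Ect2 dropped from 6.08 to 6.72 in pups to 4.26, 4.70, 4.49, 4.73 and 3.99 in adults (3.99-fold lower, 95% interval of the log2 change -2.46 to -1.53, adjusted p = 1.14e-07). Mki67 fell by 1.98 ± 0.23 (adjusted p = 1.41e-07) and Bub1, at 4.00, 4.29, 4.10, 4.15 and 4.05 in adults, by 1.44 ± 0.14 (adjusted p = 7.77e-09).

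Of the 7 replication genes 5 fell, with a median over the 7 of -0.38. Among them were Mcm6 (-1.42 ± 0.27) and Mcm3 (-0.32 ± 0.09, adjusted p = 0.0105). Mcm2 fell by 0.81 ± 0.13, and Pcna, at -0.19 ± 0.09, did not pass (adjusted p = 0.138). All 3 nucleotide genes fell, by 0.66 ± 0.18 for Tyms, 0.50 ± 0.14 for Tk1 and 0.34 ± 0.11 for Rrm1. Ccne1 fell by 0.39 ± 0.12 (adjusted p = 0.0128), and Ccnd1, at -0.67 ± 0.30, did not pass (adjusted p = 0.104).

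Between adult and pup PBDE males the same 33 genes fell and 6 more with them, 39 of 40 in all, with a median of -1.27 against -0.03 over all genes. Over all genes 13.6% fell and 5.2% rose, and 1286 fell at both doses. All adult arrays lay below all pups in 34 of 40 genes and in 9.69% of all genes. Cdkn3 stood at 5.48, 4.98, 5.15, 5.14 and 5.18 in adult PBDE males against 8.75, 8.10, 8.44, 8.28 and 8.49 in PBDE pups, a 9.37-fold fall (log2 change -3.23 ± 0.26, adjusted p = 3.54e-10). Ccna2 fell by 2.78 ± 0.28, Cdca3 by 2.48 ± 0.21 and Ccnb2 by 2.47 ± 0.21, all without overlap. Ccnd1 alone did not pass (-0.03 ± 0.30, adjusted p = 0.964). Adult PBDE males were also set against female PBDE pups, which share their prefix but differ in sex as well as age. Here 38 of 40 genes were lower, against 15.2% of all genes, and none higher, against 6.23%, with a median of -0.86. Cdkn3 again led (-2.49 ± 0.26, adjusted p = 5.25e-08). Ccnd1 (0.36 ± 0.30) and Plk1, the polo-like kinase (-0.15 ± 0.11), did not pass. These comparisons share arrays with the dose comparisons, so they are not independent of them.

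**Figure D5:**
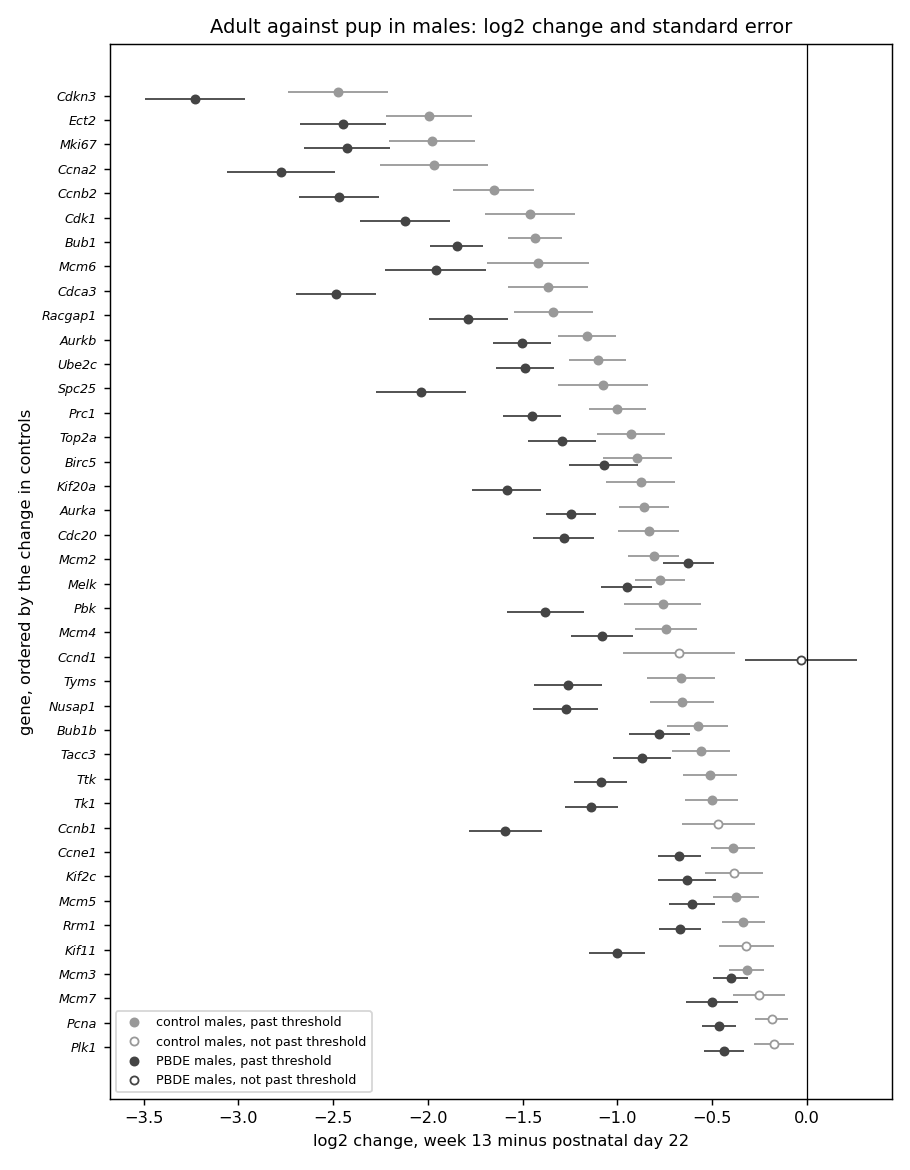
Log2 change from postnatal day 22 to week 13 in control males (grey) and PBDE males (black) with standard errors, ordered by the change in controls; filled points passed. All points lie left of 0, the black ones further left than the grey for every gene but Mcm2 and Ccnd1, and Ccnd1 in PBDE males lies at -0.03.

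Related genes outside the 40 were read from lists chosen with earlier results of these data known. Of 46 other mitotic genes, 9 rose and 1 fell in male pups, against 4.23% and 3.26% of all genes. Zwint, which recruits the checkpoint to kinetochores, rose by 1.31 ± 0.12, Hmmr, a spindle assembly factor, by 0.96 ± 0.13, Cenpw, a centromere histone-fold protein, by 0.93 ± 0.23 and Spc24, the NDC80 partner of Spc25, by 0.79 ± 0.15. Cenpm, another centromere protein, fell by 0.51 on the log2 scale. In female pups 6 rose, among them Zwint (1.21 ± 0.12), Cenpk (0.80 ± 0.15) and Spc24 (0.67 ± 0.15), and Cenpm fell by 0.61, against 3.95% and 2.18% of all genes. In adults Zwint rose by 0.64 ± 0.12 and Cenpm fell by 0.49, 1 of 46 each way against 1.86% and 2.04%. The age-by-dose interaction passed in the lower direction for 6 of 46: Cenpw, Hmmr, Spc24, Cdca8, Zwint and Cks2, against 1.35% of all genes. With age 28 of 46 fell in controls and 33 in PBDE males, against 18.6% and 13.6%. Of 33 other replication genes, 2 rose in each pup sex, a share near the 4.23% and 3.95% of all genes: Rfc2, a clamp loader subunit (0.78 ± 0.11 in males, 0.71 ± 0.11 in females), and Dut, the dUTPase (0.36 ± 0.09 and 0.41 ± 0.09). Mcm10, a replication initiation factor, fell in males (-0.58 ± 0.14). In adults none of the 33 passed. With age 11 and 18 of the 33 fell in control and PBDE males, against 18.6% and 13.6% of all genes, led in controls by Cdt1, the licensing factor (-1.33 ± 0.17).

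Among 23 other G1 and transcription genes, E2f8, a repressing E2F, rose by 0.47 ± 0.12 in male pups and Ccnd2, cyclin D2, fell by 0.51 ± 0.10, 1 of 23 each way against 4.23% and 3.26% of all genes. None passed with dose in females or adults. With age in controls 9 of 23 fell and 2 rose, against 18.6% and 10.9% of all genes, among them E2f2 (-1.39 ± 0.22), Ccnd2 (-1.09 ± 0.10) and Rb1, the retinoblastoma gene, which rose by 1.12 ± 0.14. All 7 CDK inhibitor genes were read. Cdkn1a, which encodes p21, averaged 9.67 in adult controls and 8.38 in adult PBDE males, a fall of 1.29 ± 0.22 (adjusted p = 8.17e-04 by limma). It was the 1 of 7 that passed with dose in adults, where 2.04% of all genes fell. In pups it stood at -0.46 ± 0.22 in males and -0.43 ± 0.22 in females, neither past the threshold. With age in control males 2 of the 7 rose, Cdkn1a by 1.39 ± 0.22 (adjusted p = 2.12e-05) and Cdkn2a by 0.28 ± 0.08. Another 3 fell: Cdkn1c (-0.53 ± 0.13), Cdkn2d (-0.48 ± 0.15) and Cdkn2c (-0.42 ± 0.11). The shares over all genes were 10.9% higher and 18.6% lower. With age in PBDE males 2 of the 7 fell, Cdkn1c by 0.55 and Cdkn2c by 0.51, and none rose, where 13.6% of all genes fell and 5.2% rose. Cdkn1c, p57, fell in female PBDE pups by 0.62 ± 0.13 (adjusted p = 0.00184 by limma), where 2.18% of all genes fell. Its changes of -0.33 ± 0.13 in male pups and -0.35 ± 0.13 in adults did not pass. Cdkn1b, p27, showed changes of 0.01, 0.01 and 0.00 in the 3 dose comparisons, and Cdkn2a, Cdkn2b, Cdkn2c and Cdkn2d passed in none. Of 15 growth signal genes, Lgr5, a Wnt target and receptor, fell in female pups by 0.82 ± 0.17, where 2.18% of all genes fell. None of the 15 passed with dose in males or adults. With age in controls, Egf rose by 1.17 ± 0.20 and Lgr5 fell by 1.00 ± 0.17, where 10.9% of all genes rose and 18.6% fell.

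Markers of other liver cells moved with some of these comparisons. In male pups 4 of 10 endothelial markers fell with dose, against 3.26% of all genes, Fcgr2b (-0.89 ± 0.12) and Stab2 (-0.79 ± 0.13) among them. Of those that did not pass, Kdr stood at -0.47 ± 0.13, Pecam1 at -0.14 ± 0.08, Tie1 at 0.00 ± 0.08 and Vwf at 0.21 ± 0.16. The mean of that list ran from 8.33 to 8.58 in controls and from 7.91 to 8.27 in PBDE pups. In female pups 2 of 10 endothelial markers fell, against 2.18% of all genes. Of the stellate markers 2 of 10 fell there, Lrat (-0.77 ± 0.16) and Pdgfrb (-0.44 ± 0.11). Others of that list leaned up without passing, such as Col1a1 (0.76 ± 0.30) and Des (0.49 ± 0.19). The stellate list mean ran from 7.93 to 8.28 in female controls and from 7.79 to 8.73 in female PBDE pups. Acta2 was the 1 of 10 stellate markers that fell in male pups (-0.44 ± 0.11), against 3.26% of all genes. Without passing there, Reln stood at 0.36 ± 0.16 and Dcn at -0.65 ± 0.37. Kupffer cell and macrophage markers fell in 2 of 10 in male pups, Aif1 and C1qa, against 3.26% of all genes. Their list means were 9.08 to 9.35 in controls and 8.70 to 8.90 in PBDE pups. No erythroid, lymphocyte or neutrophil marker passed with dose in pups. The biliary and progenitor marker Epcam rose in all 3 dose comparisons (1.07 ± 0.18, 0.92 ± 0.18 and 1.13 ± 0.18). It was 1 of 6 cholangiocyte markers read, and none of the other 5 passed with dose. Over all genes 4.23%, 3.95% and 1.86% rose in these comparisons. Krt19 stood at -0.28, -0.32 and -0.23, and Spp1 at -0.07, -0.00 and -0.19. The 9 erythroid markers, which mark red cell precursors, ran from 7.27 to 7.80 in male control pups and from 7.32 to 8.04 in male PBDE pups. They ran from 7.09 to 7.48 in female control and from 7.64 to 7.80 in female PBDE pups, without overlap, though 0 of 9 passed. Ahsp came closest in females (0.81 ± 0.22, adjusted p = 0.0178 by limma), then Klf1 (0.43 ± 0.12, adjusted p = 0.0233). Slc4a1 stood at 0.83 ± 0.28 and Alas2 at 0.78 ± 0.28, and Rhag alone was below 0, at -0.06. In adults the erythroid markers ran from 6.28 to 6.97 in controls and from 6.28 to 6.93 in PBDE males. Of the 9, 5 fell with age at each dose, led by Slc4a1 (-1.99 ± 0.28 in controls). Over all genes 18.6% fell with age in control males and 13.6% in PBDE males. Stellate cell and fibroblast markers fell with age in 9 of 10 in controls, against 18.6% of all genes. Their list means were 8.12 to 8.53 in control male pups and 7.18 to 7.38 in control adults. The part of these cells in the cell cycle results was not tested.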

How the data were processed

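The deposited log2 values (31099 probe sets, 30 arrays) are the authors' RMA output, per the submitters' processing notes, and were not changed. Total RNA (50 ng) had been labelled in 2 cycles from the 3' end, per the labels' protocols, so degraded RNA can lower a reading. Control probe sets (57) were set aside. All 6 groups entered 1 limma model (version 3.58.1, R 4.3.3, lmFit and eBayes) with no covariate, with Benjamini-Hochberg adjustment over 31042 probe sets, and was tested on simulated data. The threshold was 0.01 for pups and 0.05 where adults entered, after the series' design text. Of the probe sets, 20826 name 1 gene, 436 several and 9780 none, and 11 of the members have several. The members and all lists were chosen with earlier results of these data known. All 42 genes are named or counted, and Top2a, Tacc3 and Ttk are named only here. Array values are given for at most 10 genes past the threshold per comparison with the largest changes and for Ccnd1, Ccne1, Cdk1, Mki67, Pcna and Mcm2. Other lists name at most 5 genes past the threshold, and all CDK inhibitors. Alternatives were another false discovery rate, the compared groups alone, a filter on low values, the mean of a gene's probe sets, the 3' minus 5' covariate, a replicate block, trended robust eBayes, renewed quantile normalization and leaving out each array. Residuals of arrays with the same replicate number had a mean correlation of 0.00417, others -9.06e-04. These means run over all pairs of groups, so they cannot show whether the numbers pair samples of some groups. The number of arrays limits the precision.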

Additional observations from a re-analysis of the deposited data

Results flagged for a closer look

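Among 240 groups of 5 values (40 genes in 6 groups), 17 held an array far from the other 4, where chance gives about 1 in 20, or 12. Of the 17, 6 were low values of male PBDE replicate 4. These were Mki67 at 6.12 (others 6.70 to 6.86), Ccna2 at 5.57 (6.46 to 6.70), Bub1 at 5.50 (6.14 to 6.36), Pcna at 9.71 (10.03 to 10.12), Nusap1 at 7.38 (7.70 to 7.72) and Spc25 at 6.51 (7.28 to 7.47). That array also had the lowest mean over the 40 genes in its group, and without it 14 genes rose in place of 10. Single arrays stood high for Cdc20 in female control replicate 4 (7.29), Bub1b in female PBDE replicate 4 (5.19) and Kif11 in adult control replicate 4 (5.93). Single arrays stood low for Mcm6 in adult PBDE replicate 2 (4.36), Mcm7 in female control replicate 1 (7.92), Rrm1 in female PBDE replicate 1 (6.72) and Nusap1 in male control replicate 3 (6.72). Low values were also read for Kif20a in male PBDE replicate 2 (6.85), Prc1 in female PBDE replicate 1 (6.71), Ube2c in adult control replicate 1 (4.97) and Pbk in female control replicate 1 (5.19). The dose change differed between adult males and male pups for Ccnb1 (-1.12, adjusted p = 0.0254) and Cdca3 (-1.12, adjusted p = 0.0463), by limma's interaction term.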

How the results depend on the processing

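With the other false discovery rate of the design text (0.05 for pups, 0.01 for adults), 20 genes rose in male pups and 18 in female pups, 1 fell in female pups, none rose in adults and the age-by-dose interaction called 0. With the 3' minus 5' covariate 5 rose in males, 5 in females and 0 in adults, and 21 fell with age in controls. The compared groups alone gave 4 in females. After the filter on low values, which left 25 genes, 6 rose in females, 1 passed in age by dose, and 21, 24 and 23 fell in control males, PBDE males and adult PBDE males against female PBDE pups. Trended robust eBayes gave 0 lower in males (Ccnd1) and 1 in age by dose. The replicate block gave 0 lower in males, with 9 higher in males, 10 in females, 1 in adults, and 2 lower in age by dose. Its other counts, 33, 39 and 37 with age, stayed within 1.5 times the main ones. Leaving out 1 array gave 5 to 14 higher and 0 to 1 lower in males, 5 to 14 higher in females, 0 to 1 in adults, 0 to 3 in age by dose, and 31 to 34, 39 and 34 to 38 with age. The adult change of Cdk1 ran from -0.0939 to 0.228 when 1 array was left out, below 0 without adult control replicates 1 and 5 or adult PBDE replicate 4 (-0.0939, -0.0511 and -0.0264), never past the threshold. The male Cdk1 change passed with the compared groups alone (adjusted p = 0.00462). Some alternatives test fewer genes or arrays, and why a count moved was not tested for any of them. Over single genes and settings, 2464 values kept their direction and side of the threshold, 192 lost a call and 8 gained one. Prefix cannot be told apart from dose in females or from age, and low signal limits the adult values.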
